A study of Mus musculus with 45 samples.

Results

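The extracellular matrix genes examined here are 43 genes, of the 55335 listed, for collagens, other matrix proteins, the enzymes that modify collagen, and the proteases and inhibitors that remodel the matrix. They are the rows whose gene symbol is on a fixed list of members. That list was drawn up with earlier results of these data known. The RNA came from cultured cells of 2 mouse tumour lines: CT26, which the labels describe as a carcinoma of the colon, and Hepa1-6, derived from liver. In the drug experiment, wild-type cells of each line received the compound named only stk, or dmso (the solvent), for 48 hours. In the knockdown experiment, cells collected 24 hours after seeding carried a short hairpin RNA: in CT26 sh1, sh2 or sh3, each against Soat1, the gene of an enzyme that esterifies cholesterol, or shLucif, against luciferase, and in Hepa1-6 a scramble hairpin or shLucif. No group mixes the experiments, hairpin lines received no drug, and neither the vector nor whether a hairpin line is 1 clone is given in the sources used here. Each of the 10 groups used has 3 libraries. Levels are in FPKM, read fragments scaled to transcript length and library size. Fold changes are differences of log2(FPKM + 1), which understates the change of genes with low FPKM. Adjusted p-values come from limma with the Benjamini-Hochberg adjustment over all genes tested, and "rose" or "fell" means an adjusted p under 0.05.

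The matrix is the protein network outside cells. Fibrillar collagens give it tensile strength, laminins and network collagens form the basement membrane under epithelia, and glycoproteins such as fibronectin and the thrombospondins link it to cell surface receptors. Collagen chains are hydroxylated and folded inside the cell by dedicated enzymes and a chaperone, cross-linked outside it by lysyl oxidases, and cut by metalloproteinases whose activity the TIMP inhibitors limit. In tumours most fibrillar collagen is made by fibroblasts. The levels given here are those of cultured tumour lines. In bulk RNA, a lower value from fewer expressing cells and one from less RNA per cell cannot be told apart.

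The FPKM of a library summed to between 314827 and 335066.6 in the drug experiment, and to between 320249.2 and 335812.8 in the knockdown experiment. Read totals are not given. The smallest FPKM steps gave relative depths of 0.923 to 1.165 in the drug experiment and 0.655 to 1.117 in the knockdown experiment, where the lowest is a Hepa1-6 shLucif library. The lines were checked against defining markers. In CT26 with dmso, 1 of 9 colon epithelium markers reached 1 FPKM (Krt20, 26.5 ± 2.09 FPKM) and Epcam and Cdh1 were listed at 0. In Hepa1-6 with dmso, 5 of these 9 did, with Krt20 at 70.2 ± 1.37 FPKM. The 9 summed to 25.6 to 30.0 FPKM in CT26 and to 1441 to 1488 in Hepa1-6, so this list does not mark out CT26. Of 8 hepatocyte markers, 5 reached 1 FPKM in Hepa1-6 with dmso, with Alb at 159 ± 4.18 FPKM and Serpina1a listed at 0. Leukocyte markers summed to at most 8.36 FPKM and endothelial markers to at most 0.627 FPKM in any library.

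The libraries labelled Hepa1-6 shLucif stand apart from the other Hepa1-6 libraries. Hnf4a, a transcription factor of hepatocytes, averaged 43.2 ± 1.42 FPKM with scramble and 5.15 ± 0.192 with shLucif. Alb averaged 135 ± 10.7 FPKM with scramble and 1.49 ± 0.249 with shLucif. Trf, also a gene of hepatocytes, was closer, at 69.2 ± 0.159 FPKM with scramble and 54.8 ± 4.28 with shLucif. The 8 hepatocyte markers summed to 379.6 to 414 FPKM with scramble and 66.1 to 74.7 with shLucif. Soat1 averaged 0.146 ± 0.0435 FPKM with scramble and 13.1 ± 0.499 with shLucif. The scramble libraries were near the dmso libraries of the drug experiment in Hnf4a and Soat1, where Hnf4a was 40.5 ± 2.13 and Soat1 0.139 ± 0.0162 FPKM. The comparison of scramble with shLucif below rests on these libraries and cannot be made without them.

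Of the 43 genes, 32 reached 1 FPKM in at least 3 libraries of a model and were tested in at least 1 comparison. The other 11 were never tested: Col5a2, Col6a3, Col12a1, Fbn1, Postn, Lama4, Lum, Lox, Loxl1, Loxl2 and Mmp2. Their highest group mean was 0.477 FPKM, of the fibrillin gene Fbn1 with sh3. Lox, the founding lysyl oxidase, did not exceed 0.0119 FPKM in any library, and its relative Loxl3 was the only lysyl oxidase of the list above 1 FPKM. Fibronectin (Fn1) had the highest group mean of the list, 424 ± 22.9 FPKM in Hepa1-6 scramble. Timp1 came next with 396 ± 18.1 FPKM in CT26 sh3. Means of at least 100 FPKM in a group were also reached by Dcn, Serpinh1, Timp2, Col1a2 and Thbs1.

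**Figure D1:**
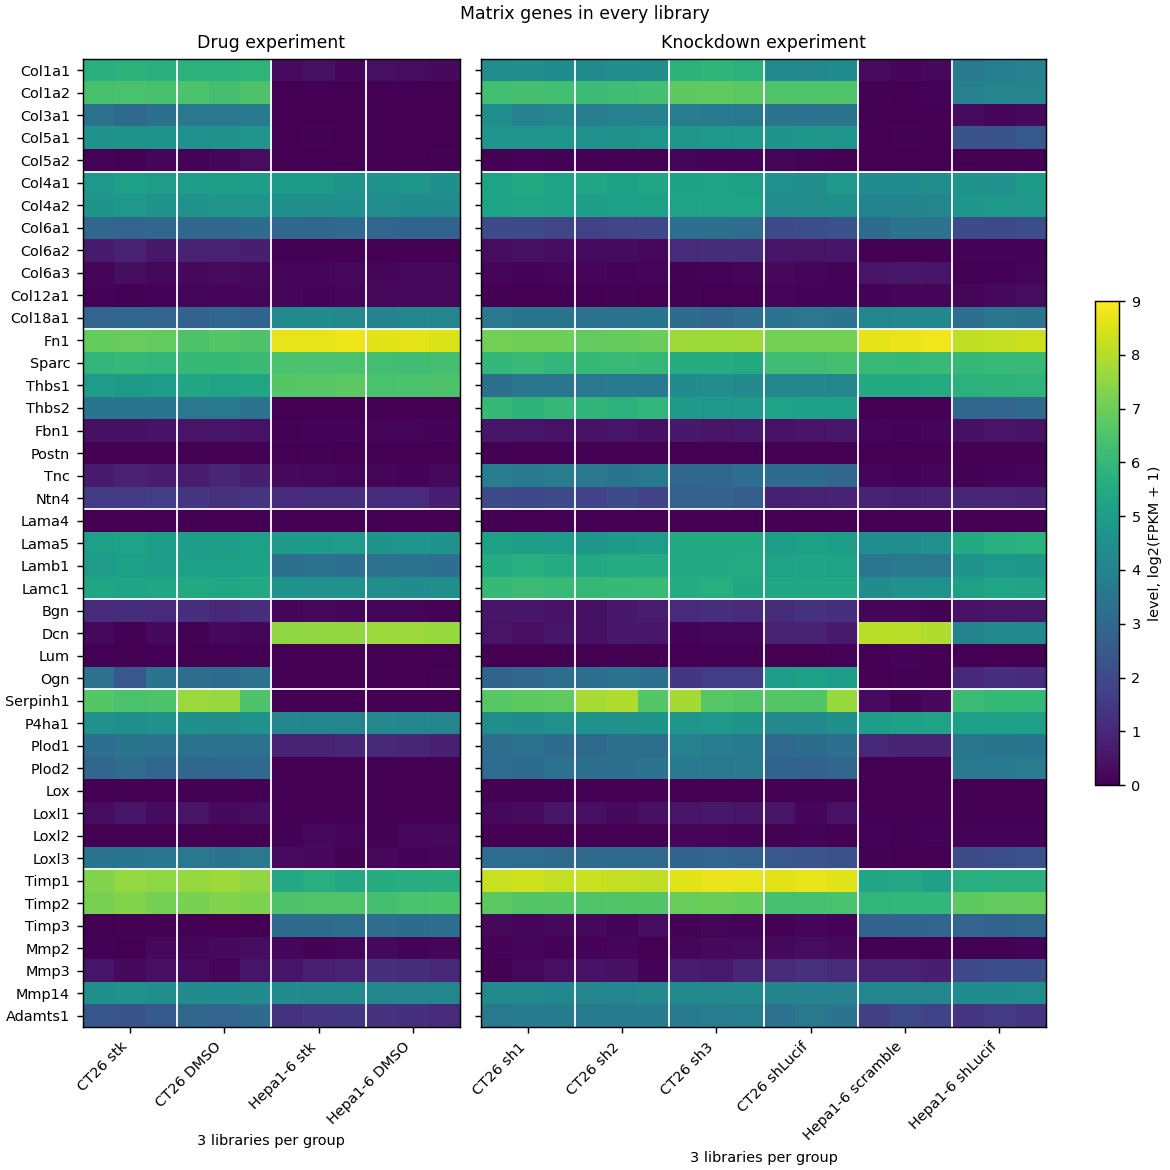
Levels of the 43 matrix genes in the 30 libraries, as log2(FPKM + 1) in colour, with genes in rows ordered by role (white lines separate fibrillar collagens, other collagens, glycoproteins, laminins, small leucine-rich proteoglycans, collagen-processing genes, and proteases with their inhibitors) and 3 libraries per group in columns. Col1a1, Col1a2 and Col5a1 are bright in CT26 and dark in Hepa1-6 except in the libraries labelled shLucif, and Dcn shows the opposite pattern between the lines.

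The 2 lines were compared under dmso to describe the matrix each one makes. The genes of 3 fibrillar collagens (types I, III and V), Serpinh1, Plod2 and Loxl3 were expressed in CT26 and hardly or not in Hepa1-6, while Hepa1-6 had more decorin, fibronectin and Timp3. All 30 tested members differed, 23 higher in CT26 and 7 lower, where 76.8% of all 12822 genes tested differed, 38.5% higher and 38.4% lower. The median difference was 0.91 over the members and -0.01 over all genes on the log2 scale. Of the 30, 13 reached 1 FPKM in 1 line only and so had to differ to be tested. Higher in CT26 were 10 of them: Col1a1, Col1a2, Col3a1, Col5a1, Thbs2, Loxl3, Serpinh1, Plod2, Bgn and Ogn. Lower were 3: Timp3, Mmp3 and Dcn. For these 13 the fold changes and adjusted p-values below are a description. Of the other 17, 13 were higher in CT26 and 4 lower, with a median of 0.38. Plod1 is among these 17, but in Hepa1-6 only a single dmso library reached 1 FPKM (1.03). It passed the filter only through CT26, where it is high, so its values below are a description too.

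Col1a2 and Col1a1 encode the chains of type I collagen, the main fibril of connective tissue. Col1a2 (ENSMUSG00000029661, chromosome 6, 4504814 to 4541544, build GRCm38) measured 85.7, 79.4 and 88.5 FPKM in CT26 and 0.00414, 0.00841 and 0 in Hepa1-6 (log2 fold change 6.41, SE 0.0430, adjusted p = 5.03e-16). Col1a1 (ENSMUSG00000001506, chromosome 11, 94936224 to 94953042) measured 54.3, 53.0 and 56.6 FPKM in CT26 and 0.284, 0.243 and 0.171 in Hepa1-6 (log2 fold change 5.50, SE 0.0624, adjusted p = 2.2e-14). The lines did not overlap in either gene. Col5a1, whose product starts the assembly of fibrils, measured 22.6, 23.4 and 24.6 FPKM in CT26 and 0, 0.00619 and 0.0240 in Hepa1-6 (log2 fold change 4.60, adjusted p = 6.26e-15). Col3a1, of type III collagen, measured 11.3, 11.0 and 12.1 FPKM in CT26 and 0.00413, 0.00547 and 0 in Hepa1-6 (3.63, adjusted p = 3.13e-12). Over these 4 genes the lowest CT26 value was 11.0 FPKM and the highest Hepa1-6 value 0.284 FPKM. The partner chain of type V collagen, Col5a2, did not exceed 0.245 FPKM in either line, so the 2 chains of that collagen were unequally expressed in CT26.

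Of the 5 tested members that process collagen, 4 had levels in CT26 well above those in Hepa1-6, and the difference in P4ha1 was smaller. Serpinh1 (ENSMUSG00000070436, chromosome 7, 99345376 to 99353239) encodes HSP47, the chaperone of procollagen. It measured 199, 195 and 89.3 FPKM in CT26 and is listed at 0 in all 3 Hepa1-6 libraries. Plod2, a lysyl hydroxylase that acts on collagen telopeptides, measured 7.18, 7.11 and 7.50 FPKM in CT26 and is also listed at 0 in Hepa1-6. No fold is given for these genes. Plod1, a lysyl hydroxylase of the helix, measured 9.64, 9.17 and 9.31 FPKM in CT26 and 1.03, 0.935 and 0.721 in Hepa1-6. Its log2 fold change (2.46, SE 0.0687, adjusted p = 4.23e-11) is a description, since it passed the filter only through CT26. Loxl3, which cross-links collagen, measured 11.5, 10.1 and 11.0 FPKM in CT26 and 0.152, 0.0588 and 0.0955 in Hepa1-6 (log2 fold change 3.43, SE 0.0668, adjusted p = 1.83e-12). P4ha1, the catalytic subunit of a prolyl hydroxylase, was present in both lines, at 22.0 ± 1.37 FPKM in CT26 and 16.9 ± 0.761 in Hepa1-6, a difference of 0.36 on the log2 scale (adjusted p = 7.91e-05). Outside the list, the collagen foldase gene Fkbp10 stood at 53.0 ± 0.539 FPKM in CT26 and 0.0699 ± 0.106 in Hepa1-6 (5.66 on the log2 scale), and the gene Pcolce2, of an enhancer of procollagen processing, was lower in CT26 (-3.21).

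Decorin, a small proteoglycan that coats collagen fibrils, had the opposite distribution. Dcn (ENSMUSG00000019929, chromosome 10, 97479609 to 97518143) measured 0.0455, 0.148 and 0.0927 FPKM in CT26 and 197, 197 and 196 in Hepa1-6 (log2 fold change -7.50, SE 0.0549, adjusted p = 9.1e-16). Timp3, the TIMP that binds to the matrix, measured 0.00632, 0.00707 and 0.00579 FPKM in CT26 and 8.36, 8.16 and 8.30 in Hepa1-6 (log2 fold change -3.20, SE 0.0433, adjusted p = 8.07e-14). The annotation places 21.3% of the exon bases of Timp3 on those of Syn3 on the opposite strand, and whether counting used the strand is not given in the sources used here. Fn1 measured 88.6, 97.0 and 89.4 FPKM in CT26 and 385, 398 and 360.2 in Hepa1-6 (-2.04, adjusted p = 7.13e-12). Thbs1, a glycoprotein that releases TGF-beta from its latent form, was also lower in CT26 (37.9 ± 2.47 FPKM) than in Hepa1-6 (86.7 ± 1.55; -1.17). Its relative Thbs2, an inhibitor of angiogenesis, was higher, at 10.8, 11.2 and 9.29 FPKM in CT26 and 0.0226, 0 and 0.0221 in Hepa1-6 (3.49, adjusted p = 7.09e-13). The osteoglycin gene Ogn, a relative of decorin, measured 8.23, 8.07 and 9.46 FPKM in CT26 and 0, 0 and 0.0402 in Hepa1-6 (3.24, adjusted p = 7.77e-08). Timp1 measured 192, 205 and 180.0 FPKM in CT26 and 47.1, 47.8 and 47.7 in Hepa1-6 (1.99). The protease gene Adamts1 measured 7.22, 6.64 and 7.96 FPKM in CT26 and 1.44, 1.30 and 1.12 in Hepa1-6 (1.86).

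Of the basement membrane genes, type IV collagen and Lama5 differed little between the lines, and Lamb1, Lamc1 and Col18a1 more. Col4a1 averaged 31.3 ± 1.43 FPKM in CT26 and 23.8 ± 2.41 in Hepa1-6 (0.39), and Col4a2 24.5 ± 0.650 and 19.7 ± 0.479 FPKM (0.30). The laminin chain genes Lama5, Lamc1 and Lamb1 differed by 0.39, 1.01 and 1.77. Col18a1, a basement membrane collagen, was lower in CT26 at 6.70 ± 0.469 FPKM, against 16.3 ± 0.917 in Hepa1-6 (-1.16). The remaining tested members differed by -0.82 (Mmp3) to 1.05 (Bgn) on the log2 scale. All of these differences had an adjusted p under 0.05, which for Mmp3 and Bgn is a description.

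**Figure D2:**
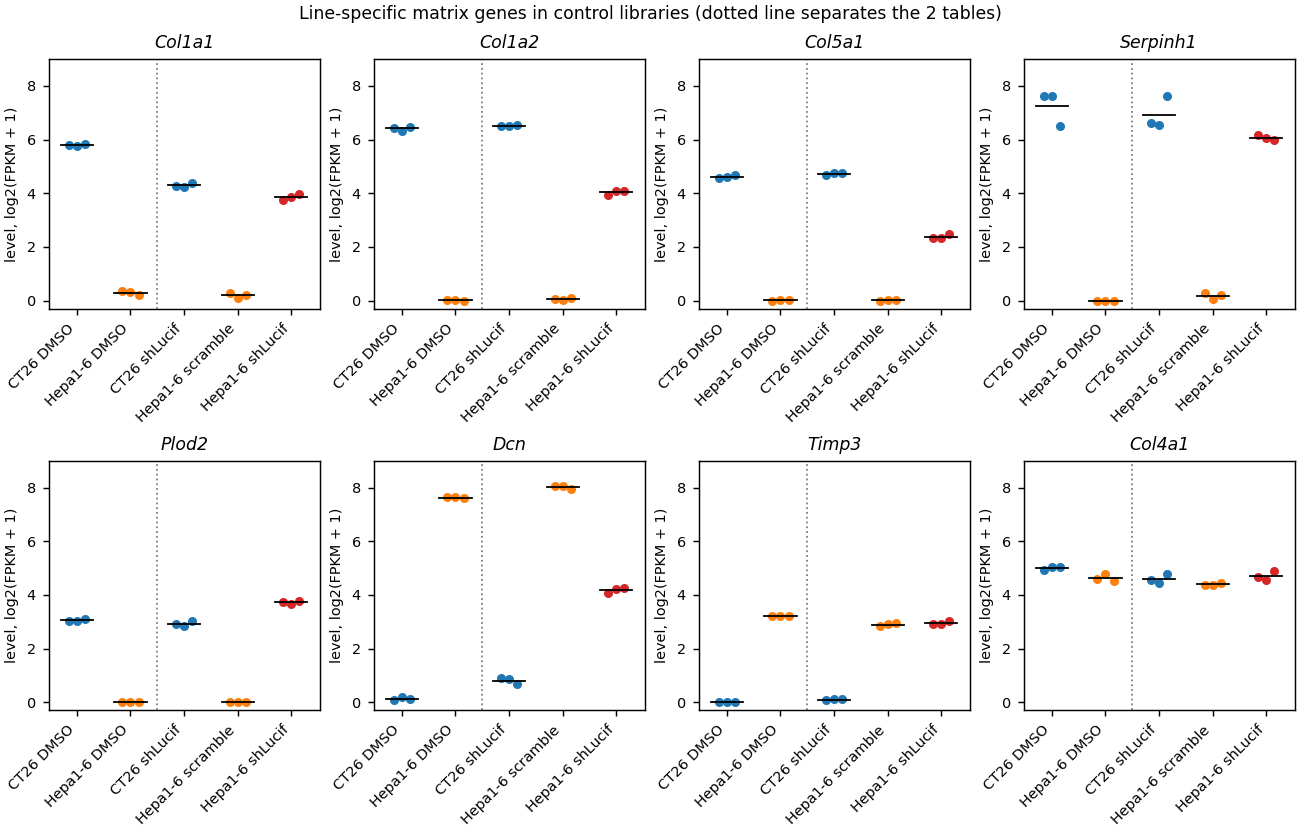
Levels of 8 matrix genes in the control libraries, as log2(FPKM + 1) on the vertical axis, with a point per library and a bar at the mean of 3. CT26 libraries are blue, Hepa1-6 libraries orange and the libraries labelled Hepa1-6 shLucif red. The dotted line separates the drug table (left) from the knockdown table (right), which were normalized separately. The shLucif-labelled Hepa1-6 points lie between the lines for Col1a2, Col5a1 and Dcn, and above both for Plod2.

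The hairpins address the role of Soat1 in CT26. The targeted gene was low in every hairpin line. Soat1 averaged 3.27 ± 0.0350 FPKM with sh1, 3.47 ± 0.0741 with sh2 and 2.59 ± 0.104 with sh3, against 19.9 ± 0.254 with shLucif (log2 fold changes -2.29, -2.23 and -2.54). The 3 comparisons use the same 3 shLucif libraries, so a shift of those libraries would appear in all of them.

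Of the 30 members tested, 13 rose and 7 fell with sh1, where 37.8% of all 11832 genes tested were called, 19.1% higher and 18.7% lower. With sh2, 14 rose and 11 fell, where 38.9% of all genes were called, 18.9% higher and 20% lower. With sh3, 20 rose and 5 fell, where 52.5% of all genes were called, 30.9% higher and 21.6% lower. In these counts Col6a2 reached 1 FPKM only with sh3 and Mmp3 only with shLucif, so that both had to differ between groups to be tested. Without Col6a2 and Mmp3, 13 rose and 6 fell with sh1, 14 rose and 9 fell with sh2, and 19 rose and 4 fell with sh3. Ntn4 stays among those that rose, although its highest shLucif library was at 0.873 FPKM. It thus passed the filter only through the hairpin libraries, where it is high. The median log2 fold change of the members was 0.09 with sh1, 0.14 with sh2 and 0.28 with sh3, and that of all genes was 0.00, -0.01 and 0.04. For the mean of the 3 hairpins, 18 members rose and 7 fell, where 43.1% of all genes were called, 23.4% higher and 19.8% lower. Osteoglycin fell most and netrin-4 rose most of the members in each of the 3 comparisons. The genes of type IV collagen and of the lysyl oxidase Loxl3 rose with every hairpin, and Col1a2, Col6a1 and Fn1 rose with sh3 and fell with sh2.

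The promoter windows of the members that the hairpin results turn on are shown first, from RefSeq on build GRCm38.p6, each with 250 bases before the annotated start and 50 after it. Of the 43 members, 28 have such a window. Col4a1 and Col4a2 lie head to head on chromosome 8, their annotated first exons overlap by 22 bases, and their windows share 78 bases. The shared bases, in capitals, are the reverse complement of each other in the 2 windows, at chr8:11312777-11313076 on the minus strand for Col4a1 and chr8:11312555-11312854 on the plus strand for Col4a2.
Col4a1: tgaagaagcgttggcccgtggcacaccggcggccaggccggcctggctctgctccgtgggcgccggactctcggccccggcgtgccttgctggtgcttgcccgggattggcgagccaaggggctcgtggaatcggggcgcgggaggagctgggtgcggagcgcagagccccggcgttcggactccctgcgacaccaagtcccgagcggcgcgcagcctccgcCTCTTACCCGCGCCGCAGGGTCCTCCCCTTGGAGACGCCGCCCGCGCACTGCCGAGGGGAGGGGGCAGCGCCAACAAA
Col4a2: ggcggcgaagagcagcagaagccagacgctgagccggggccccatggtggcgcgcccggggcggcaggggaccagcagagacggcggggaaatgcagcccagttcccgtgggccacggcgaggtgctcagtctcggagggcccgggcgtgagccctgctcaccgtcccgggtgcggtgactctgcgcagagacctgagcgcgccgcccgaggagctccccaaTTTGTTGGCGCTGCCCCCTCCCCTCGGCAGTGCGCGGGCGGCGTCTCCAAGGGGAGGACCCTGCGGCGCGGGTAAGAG
The Ogn window (chr13:49607765-49608064, plus strand) is 42.3% G and C, against a median of 52.7% over the 32851 windows of the table. Capitals mark the letters TATAAA, found on both strands in overlapping positions from base -229, and GGAATG, the core letters of a TEAD site, at base -86.
Ogn: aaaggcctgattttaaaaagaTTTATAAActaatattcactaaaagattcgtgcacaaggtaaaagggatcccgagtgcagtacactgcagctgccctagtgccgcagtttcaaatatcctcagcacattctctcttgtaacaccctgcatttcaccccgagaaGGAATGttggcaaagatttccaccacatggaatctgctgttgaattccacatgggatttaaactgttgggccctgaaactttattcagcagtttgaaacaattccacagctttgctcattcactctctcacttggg
The Ntn4 window (chr10:93640799-93641098, plus strand) is 72% G and C. Capitals mark 4 matches to the GC box GGGCGG on either strand, 2 of which overlap.
Ntn4: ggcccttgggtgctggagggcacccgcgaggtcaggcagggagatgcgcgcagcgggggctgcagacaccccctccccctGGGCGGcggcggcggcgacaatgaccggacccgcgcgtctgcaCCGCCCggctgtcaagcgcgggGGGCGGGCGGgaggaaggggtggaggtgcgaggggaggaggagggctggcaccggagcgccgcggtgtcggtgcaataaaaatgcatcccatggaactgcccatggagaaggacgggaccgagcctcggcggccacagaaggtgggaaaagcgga
TATAAA occurs on either strand in 13.6% of all windows of this length and in windows of 9 of the 28 members, GGAATG in 14.7% and 5 members, GGGCGG in 35.7% and 20 members, CCAAT in 37.4% and 10 members, and the AP-1 letters TGANTCA in 7.81% and 2 members. These matches are letters in a window and say nothing about whether a factor binds.

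Osteoglycin is a small leucine-rich proteoglycan of connective tissue. Ogn (ENSMUSG00000021390, chromosome 13, 49608046 to 49624501) measured 6.50, 6.93 and 8.64 FPKM with sh1, 8.80, 9.28 and 8.83 with sh2 and 1.75, 2.16 and 2.10 with sh3, against 31.3, 33.8 and 31.7 with shLucif. No hairpin library came near a control library, and every sh3 library was below every sh1 and sh2 library. The log2 fold change was -2.00 with sh1 (SE 0.0870, adjusted p = 7.18e-08), -1.74 with sh2 (adjusted p = 1.47e-07) and -3.47 with sh3 (adjusted p = 9.58e-10). Bgn, the biglycan gene, is the other tested member of that family. It measured 0.454, 0.461 and 0.354 FPKM with sh1, 0.337, 0.520 and 0.657 with sh2 and 1.11, 1.37 and 1.09 with sh3, against 1.19, 1.48 and 1.40 with shLucif. Bgn fell with sh1 (-0.73, adjusted p = 0.000120) and sh2 (-0.65, adjusted p = 0.000254). With sh3 the libraries overlapped the controls (-0.11, adjusted p = 0.357). Dcn was too low for testing in CT26, at 0.382 ± 0.0709 FPKM with sh1, 0.448 ± 0.0980 with sh2 and 0.0932 ± 0.0329 with sh3, against 0.750 ± 0.145 with shLucif.

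Netrin-4 is a laminin-related protein that binds laminin and loosens its networks. Ntn4 (ENSMUSG00000020019, chromosome 10, 93640681 to 93747207) measured 3.08, 2.84 and 3.05 FPKM with sh1, 2.54, 3.17 and 2.63 with sh2 and 5.72, 6.04 and 5.26 with sh3, against 0.723, 0.772 and 0.873 with shLucif. The sh3 libraries were above all others and the groups did not overlap with the control. The log2 fold change was 1.16 with sh1 (SE 0.0735, adjusted p = 8.2e-07), 1.08 with sh2 (adjusted p = 1.19e-06) and 1.90 with sh3 (adjusted p = 1.64e-08). Ntn4 was tested only because of the hairpin libraries, since no shLucif library reached 1 FPKM. Its fold changes and adjusted p-values against shLucif are therefore a description.

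Among basement membrane genes, Col4a1 (ENSMUSG00000031502, chromosome 8, 11198423 to 11312826) measured 36.6, 43.7 and 36.6 FPKM with sh1, 38.4, 33.4 and 39.0 with sh2 and 34.5, 35.4 and 33.2 with sh3, against 22.3, 20.6 and 26.7 with shLucif. Its neighbour Col4a2 (ENSMUSG00000031503, chromosome 8, 11312805 to 11449287) measured 36.4, 37.7 and 35.3 FPKM with sh1, 32.1, 33.9 and 33.9 with sh2 and 37.2, 36.4 and 36.5 with sh3, against 20.1, 20.7 and 21.6 with shLucif. Every hairpin library was above every control library in both genes, and the mean ratio of Col4a1 to Col4a2 mRNA per group was between 0.936 (sh3) and 1.115 (shLucif), with single libraries from 0.910 to 1.236. Col4a1 rose by 0.73, 0.65 and 0.56 with sh1, sh2 and sh3 (adjusted p = 0.000173, 0.000353 and 0.000615), and Col4a2 by 0.78, 0.66 and 0.79 (adjusted p = 2.19e-07, 5.68e-07 and 1.03e-07). Lamc1, the laminin chain shared by most laminins, measured 64.8, 70.7 and 67.0 FPKM with sh1, 62.9, 64.8 and 67.9 with sh2 and 47.1, 49.3 and 41.3 with sh3, against 40.6, 40.9 and 40.1 with shLucif. It was high with sh1 and sh2 (0.72 and 0.67) and little above the control with sh3 (0.17, adjusted p = 0.0306). Lamb1 rose with each hairpin by 0.38, 0.28 and 0.28. Lama5 measured 33.4, 32.1 and 29.9 FPKM with sh1, 26.2, 28.6 and 30.4 with sh2 and 44.2, 44.1 and 43.7 with sh3, against 31.3, 33.3 and 31.9 with shLucif. It fell slightly with sh2 (-0.18, adjusted p = 0.0265), rose with sh3 (0.44, adjusted p = 5.97e-05) and did not pass with sh1 (-0.02, adjusted p = 0.833). Col18a1 was lower with sh3 (-0.34, adjusted p = 0.00131).

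Type I collagen genes rose with sh3. Col1a1 measured 20.5, 21.5 and 19.9 FPKM with sh1, 19.1, 21.4 and 20.8 with sh2 and 55.8, 57.8 and 54.3 with sh3, against 18.2, 18.0 and 19.6 with shLucif. The sh3 libraries stood far above all others (log2 fold change 1.54, SE 0.0517, adjusted p = 7.45e-09), and the fold changes with sh1 (0.14, adjusted p = 0.0523) and sh2 (0.12, adjusted p = 0.0791) did not pass. Col1a2 measured 76.7, 79.5 and 76.2 FPKM with sh1, 71.6, 74.8 and 77.6 with sh2 and 109, 109 and 106 with sh3, against 90.8, 90.5 and 91.1 with shLucif. It was below the control with sh1 (-0.23) and sh2 (-0.28) and above it with sh3 (0.25, adjusted p = 0.000138), with no overlap. The chains are used in a fixed proportion in the type I molecule. The ratio of Col1a1 to Col1a2 mRNA was 0.266 ± 0.00508 with sh1, 0.274 ± 0.0107 with sh2 and 0.518 ± 0.00884 with sh3, against 0.205 ± 0.00902 with shLucif (SD, n = 3 each).

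Col3a1 measured 20.2, 14.4 and 16.2 FPKM with sh1, 13.1, 14.6 and 14.5 with sh2 and 12.8, 11.9 and 11.6 with sh3, against 9.91, 9.78 and 9.99 with shLucif. All hairpin libraries were above the controls (0.71, 0.47 and 0.26, adjusted p = 0.000183, 0.00281 and 0.0381). Col5a1 did not pass with any hairpin (-0.00, -0.11 and 0.09). Col6a1, a chain of the beaded filaments of type VI collagen, measured 3.18, 2.97 and 2.65 FPKM with sh1, 2.30, 2.70 and 2.86 with sh2 and 8.68, 8.93 and 8.28 with sh3, against 3.01, 3.45 and 3.86 with shLucif. The sh3 libraries were above all others (log2 fold change 1.12, SE 0.0840, adjusted p = 1.5e-06), and Col6a1 fell with sh2 (-0.29, adjusted p = 0.0176). Its partner chain Col6a2 showed the same order at lower levels, with 0.221, 0.327 and 0.234 FPKM with sh1, 0.212, 0.205 and 0.144 with sh2 and 1.11, 1.26 and 1.24 with sh3, against 0.423, 0.383 and 0.471 with shLucif. Col6a2 was tested only because of the sh3 libraries, where it is high, so its fold change with sh3 (0.63) is a description.

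**Figure D3:**
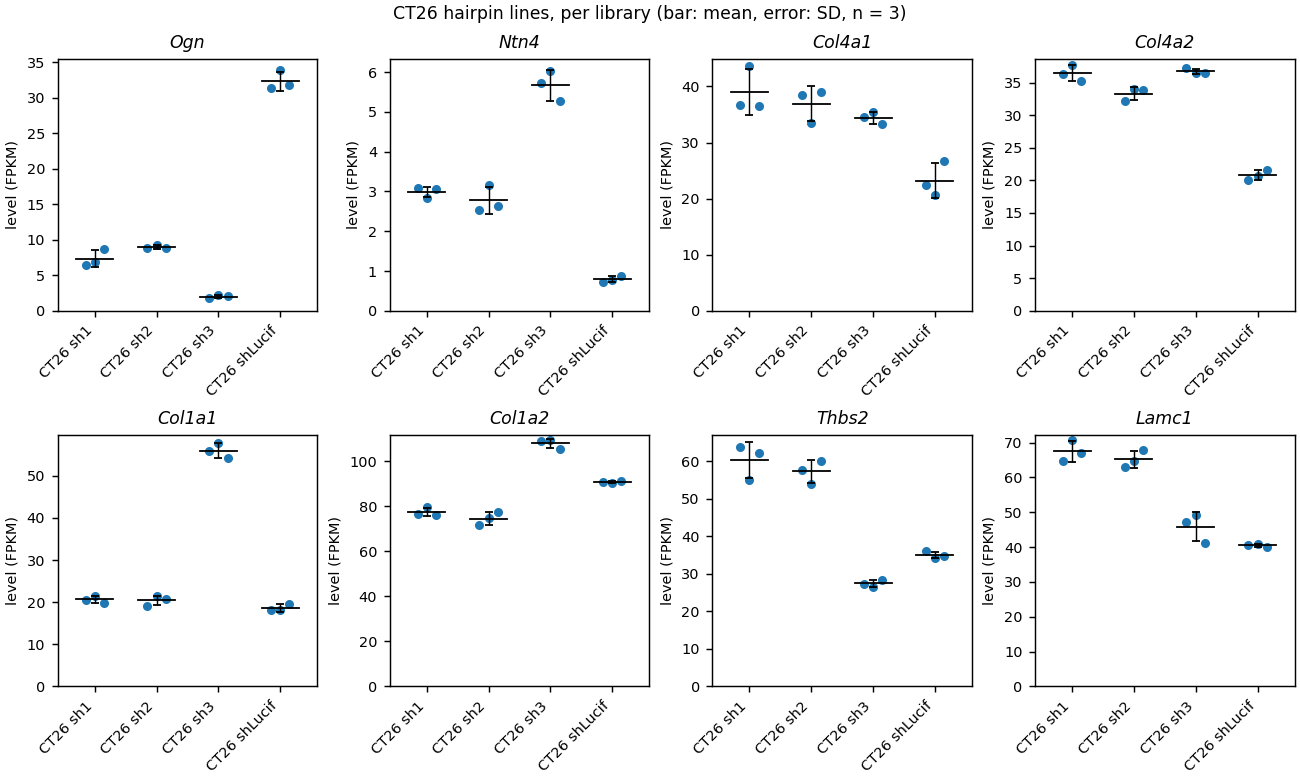
FPKM of 8 matrix genes in each library of CT26 with sh1, sh2, sh3 and shLucif, on linear axes from 0. Points are libraries, bars the mean and error bars the SD of 3. Ogn is low and Ntn4 high in every hairpin group, Col1a1 is high with sh3, and Thbs2 and Lamc1 are high with sh1 and sh2.

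The thrombospondin genes moved in opposite directions from each other. Thbs1 measured 9.01, 10.7 and 10.6 FPKM with sh1, 11.3, 11.7 and 12.5 with sh2 and 19.7, 20.0 and 18.8 with sh3, against 17.0, 17.3 and 16.5 with shLucif. It fell with sh1 (-0.70) and sh2 (-0.49) and rose slightly with sh3 (0.19, adjusted p = 0.0214). Thbs2 measured 63.9, 54.9 and 62.3 FPKM with sh1, 57.8, 54.0 and 60.1 with sh2 and 27.4, 26.5 and 28.5 with sh3, against 36.0, 34.3 and 34.6 with shLucif. It rose with sh1 (0.77) and sh2 (0.69) and fell with sh3 (-0.34, adjusted p = 0.000589). Tenascin C, a glycoprotein that weakens cell adhesion, followed Thbs2 in part: Tnc measured 13.3, 12.3 and 13.1 FPKM with sh1, 11.2, 10.3 and 12.3 with sh2 and 6.88, 7.27 and 8.68 with sh3, against 7.77, 8.10 and 6.75 with shLucif. It rose with sh1 (0.71) and sh2 (0.52), and the sh3 libraries overlapped the controls (0.01, adjusted p = 0.941). Fn1 measured 135, 129.5 and 129.5 FPKM with sh1, 112, 117 and 124 with sh2 and 203, 205 and 209 with sh3, against 139, 138 and 138 with shLucif. It rose with sh3 (0.57, adjusted p = 5.94e-07), fell with sh2 (-0.23, adjusted p = 0.000647) and did not pass with sh1 (-0.08, adjusted p = 0.138). Sparc, a collagen-binding protein, fell with each hairpin by -0.28, -0.23 and -0.73, and with sh3 it measured 46.9, 46.9 and 43.1 FPKM against 74.0, 75.2 and 79.7 with shLucif.

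Of the collagen-processing genes, Loxl3 measured 8.42, 8.40 and 7.72 FPKM with sh1, 7.70, 7.46 and 7.56 with sh2 and 6.50, 6.62 and 6.01 with sh3, against 4.50, 4.23 and 3.65 with shLucif. All hairpin libraries were above the controls (0.84, 0.75 and 0.53, adjusted p = 2.91e-06, 7.29e-06 and 4.89e-05). On the annotation, 11.6% of its exon bases lie over Htra2 on the opposite strand. Plod2 measured 8.30, 7.99 and 9.45 FPKM with sh1, 9.01, 8.99 and 9.66 with sh2 and 12.5, 11.2 and 11.9 with sh3, against 6.49, 6.19 and 7.06 with shLucif, and rose with each hairpin (0.34, 0.43 and 0.76). Plod1 measured 14.5, 13.1 and 12.2 FPKM with sh3, against 7.37, 8.10 and 8.84 with shLucif (0.65, adjusted p = 5.78e-05). With sh1 (8.27, 9.16 and 7.90 FPKM, 0.05) and sh2 (7.72, 8.89 and 8.46 FPKM, 0.04) it did not pass. P4ha1 rose with sh2 (0.24) and sh3 (0.36) and did not pass with sh1 (0.12, adjusted p = 0.229). Serpinh1 measured 99.9, 109 and 109.7 FPKM with sh1, 224, 241 and 96.9 with sh2 and 222, 101 and 92.1 with sh3, against 98.2, 92.4 and 195 with shLucif. The libraries within the sh2, sh3 and shLucif groups differed from each other by more than the group means did, and no hairpin passed the test (-0.19, 0.52 and 0.07, SE 0.410 each).

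Among proteases and inhibitors, Mmp3, stromelysin, measured 0, 0.139 and 0.294 FPKM with sh1, 0.361, 0.311 and 0.0548 with sh2 and 0.631, 0.574 and 0.972 with sh3, against 1.15, 1.42 and 1.15 with shLucif. All hairpin libraries were below the controls, with fold changes of -0.98, -0.86 and -0.38. Mmp3 was tested only because of the 3 control libraries, where it is high, so these too are a description. The membrane protease gene Mmp14 rose by 0.25, 0.17 and 0.28, and Adamts1 by 0.22, 0.22 and 0.29. Timp2, which takes part in the activation of proMMP2 by Mmp14, measured 104, 95.5 and 96.3 FPKM with sh1, 91.4, 92.2 and 93.9 with sh2 and 119.9, 125 and 117 with sh3, against 81.8, 82.0 and 84.1 with shLucif (0.25, 0.16 and 0.54). Timp1 measured 304, 323 and 285 FPKM with sh1, 302, 289 and 278 with sh2 and 375, 407 and 406 with sh3, against 385, 402 and 379 with shLucif. It fell with sh1 (-0.36) and sh2 (-0.42), and the sh3 libraries overlapped the controls (0.02, adjusted p = 0.716).

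**Figure D4:**
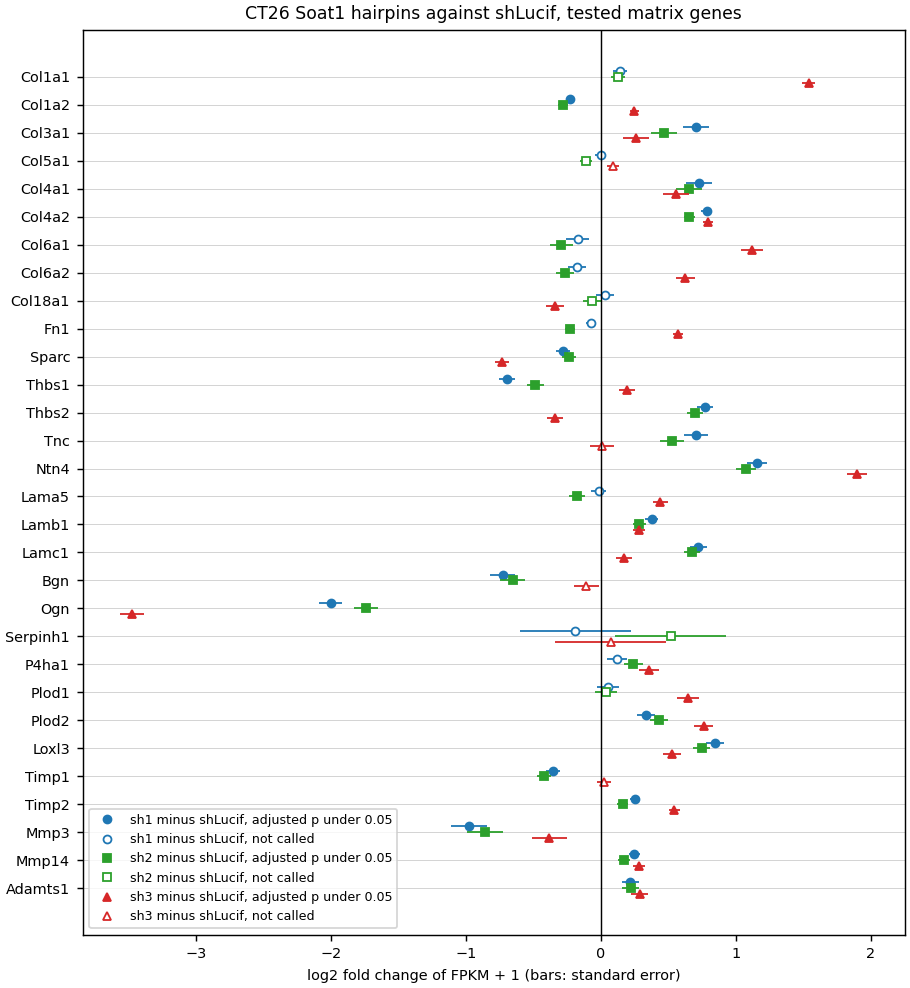
Log2 fold change of FPKM + 1 (horizontal axis, bars the standard error) of the 30 tested matrix genes in CT26 with sh1 (blue circles), sh2 (green squares) and sh3 (red triangles), each minus the same 3 shLucif libraries, with filled symbols for an adjusted p under 0.05. The sh1 and sh2 symbols lie close to each other for most genes, and the sh3 symbols lie apart from them for Ogn, Col1a1, Col6a1, Thbs1, Thbs2, Fn1 and Ntn4.

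The sh3 line was compared with the mean of sh1 and sh2 to test the difference between hairpins. The difference itself uses no control library. The shLucif libraries still enter the model's estimate of the spread and the filter on low FPKM. Of the 30 tested members, 16 were higher with sh3 and 8 lower, where 60.2% of all genes were called, 35.5% higher and 24.7% lower. The median difference was 0.16 over the members and 0.06 over all genes. Higher with sh3 were type I collagen (Col1a1 1.40, Col1a2 0.50), Col6a1 (1.35) of type VI collagen, Thbs1 (0.78), Ntn4 (0.78), Fn1 (0.72), Plod1 (0.60), Bgn (0.58) and Lama5 (0.54). The 16 also include Col6a2 (0.85) and Mmp3 (0.53), without which 14 were higher and 8 lower of 28, with a median of 0.11. Lower with sh3 were Ogn (-1.60), Thbs2 (-1.07), Tnc (-0.61), Lamc1 (-0.52), Sparc (-0.47), Col18a1 (-0.33), Col3a1 (-0.32) and Loxl3 (-0.27). Of the members named so far, Col1a1 had the smallest adjusted p (1.19e-09) and Col3a1 the largest (0.00558). Col5a1, P4ha1, Timp2, Plod2 and Timp1 were also higher with sh3, by 0.15 to 0.41. Both chains of type IV collagen, Lamb1, Adamts1, Mmp14 and Serpinh1 did not pass, with differences between -0.14 and 0.07.

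Markers of other cells moved with the hairpin groups in part. The 8 fibroblast markers summed to 95.1 to 102.2 FPKM with sh1, 92.7 to 101.5 with sh2 and 44.2 to 52.3 with sh3, against 72.0 to 75.2 with shLucif. Of the 8, 3 averaged at least 1 FPKM in each group: Pdpn, at 84.9 ± 2.89 FPKM with sh1, 85.2 ± 4.26 with sh2 and 37.6 ± 4.61 with sh3, against 64.5 ± 1.47 with shLucif, Pdgfrb and Pdgfra. Pdpn makes up most of the sum. Pdgfrb was at 9.71 ± 0.645 FPKM with sh1, 8.76 ± 0.312 with sh2 and 7.33 ± 0.431 with sh3, against 7.76 ± 0.311 with shLucif. Pdgfra was at 3.30 ± 0.147 FPKM with sh1, 3.01 ± 0.137 with sh2 and 1.91 ± 0.136 with sh3, against 1.15 ± 0.0877 with shLucif, so that with sh3 it was above the control while Pdpn was below it. Thy1, a defining marker of fibroblasts, is listed at 0 in all 4 groups. The part of these markers in the collagen differences was not tested. The 9 colon epithelium markers summed to 26.6 to 36.0 FPKM with sh1, 24.6 to 29.1 with sh2 and 43.2 to 47.5 with sh3, against 24.2 to 24.3 with shLucif. Most of this is Krt20, at 27.4 ± 4.59 FPKM with sh1, 23.9 ± 2.91 with sh2 and 41.9 ± 2.14 with sh3, against 21.1 ± 0.342 with shLucif. Krt18 was at 1.86 ± 0.148 FPKM with sh1, 1.30 ± 0.245 with sh2 and 1.59 ± 0.0905 with sh3, against 2.32 ± 0.110 with shLucif.

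The drug comparison asks which matrix genes respond to stk. In CT26, 1 of 27 tested members rose, Fn1, and 1 fell, Adamts1, where 0.748% of all 11358 genes tested were called, 0.132% higher and 0.616% lower. The median log2 fold change was -0.04 over the members and -0.01 over all genes. Of the 27 members, 9 had an unadjusted p under 0.05, as did 1656 of all 11358 genes tested. Adamts1 (ENSMUSG00000022893, chromosome 16, 85793827 to 85803113), a secreted protease that cuts large matrix proteoglycans, measured 4.36, 4.04 and 4.91 FPKM with stk and 7.22, 6.64 and 7.96 with dmso (log2 fold change -0.61, SE 0.0862, adjusted p = 0.0410). Fn1 (ENSMUSG00000026193, chromosome 1, 71585520 to 71653200) measured 115, 119 and 113 FPKM with stk and 88.6, 97.0 and 89.4 with dmso (log2 fold change 0.33, SE 0.0441, adjusted p = 0.0328). The groups did not overlap in either gene. The calls are near the threshold. In 6 fits with 1 library left out, Adamts1 was called in 1, the fit without the third stk library, with fold changes from -0.67 to -0.55, and Fn1 in 0, with fold changes from 0.31 to 0.37 and adjusted p from 0.0573 to 0.136. Neither gene was called without the filter on low FPKM (adjusted p = 0.141 for Adamts1 and 0.12 for Fn1).

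The members next in order of p in CT26, the first 3 below, did not pass. Thbs1 measured 30.4, 29.3 and 30.7 FPKM with stk and 40.4, 35.5 and 37.7 with dmso (log2 fold change -0.32, SE 0.0532, adjusted p = 0.0564), with no overlap. Col3a1 measured 9.40, 7.38 and 9.03 FPKM with stk and 11.3, 11.0 and 12.1 with dmso (log2 fold change -0.38, adjusted p = 0.135), and Lamc1 37.8, 37.0 and 39.3 with stk and 42.9, 41.0 and 41.9 with dmso (-0.14, adjusted p = 0.187). The lowest dmso library was above the highest stk library in both genes. Serpinh1 had the largest fold change of the members and the widest standard error, at 97.9, 85.3 and 88.4 FPKM with stk and 199, 195 and 89.3 with dmso (log2 fold change -0.74, SE 0.298, adjusted p = 0.328). The third dmso library lies among the stk libraries, and without it alone Serpinh1 was called lower (-1.11, adjusted p = 0.0112). Type I collagen did not pass: Col1a1 averaged 52.5 ± 2.42 FPKM with stk and 54.7 ± 1.79 with dmso (-0.06, adjusted p = 0.626), and Col1a2 82.5 ± 1.30 with stk and 84.5 ± 4.63 with dmso (-0.03, adjusted p = 0.797). Ogn and Ntn4, the members that moved most with the hairpins, measured 9.46, 4.41 and 10.1 FPKM with stk and 8.23, 8.07 and 9.46 with dmso (-0.16, adjusted p = 0.838), and 1.92, 1.92 and 2.18 with stk and 1.68, 1.44 and 1.63 with dmso (0.22, adjusted p = 0.267).

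**Figure D5:**
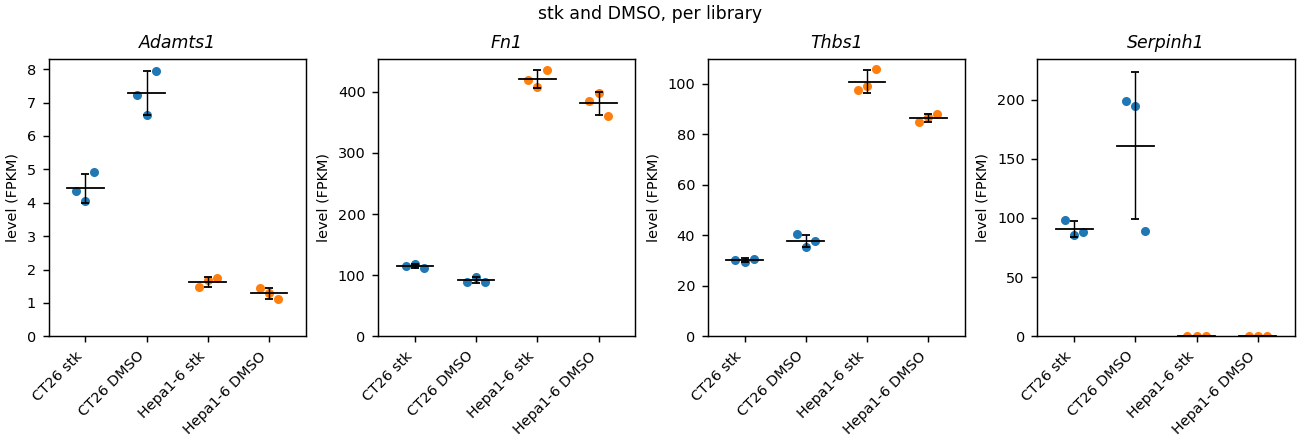
FPKM of Adamts1, Fn1, Thbs1 and Serpinh1 in each library of CT26 (blue) and Hepa1-6 (orange) with stk and with dmso, on linear axes from 0, with a bar at the mean and error bars of 1 SD (n = 3). Adamts1 is lower and Fn1 higher with stk in CT26, and 1 of the 3 CT26 dmso libraries of Serpinh1 lies with the stk libraries.

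In Hepa1-6, 0 of 19 tested members passed with limma, where 1.53% of all 11426 genes tested were called, 0.683% higher and 0.849% lower. Of the 19, 12 had an unadjusted p under 0.05, as did 2714 of all genes tested, and the median log2 fold change was 0.14 over the members and 0.00 over all genes. Thbs1 measured 97.5, 99.3 and 106 FPKM with stk and 85.0, 87.0 and 88.0 with dmso (log2 fold change 0.22, SE 0.0406, adjusted p = 0.0529). Lama5 measured 27.9, 29.3 and 29.5 FPKM with stk and 24.3, 25.5 and 23.5 with dmso (log2 fold change 0.23, SE 0.0445, adjusted p = 0.0544). Sparc measured 87.0, 83.6 and 85.0 FPKM with stk and 75.7, 73.8 and 77.8 with dmso (log2 fold change 0.17, SE 0.0344, adjusted p = 0.0600). The stk libraries were above the dmso libraries in all 3 genes without reaching the threshold. With a minimum of 5 FPKM these 3 were called, at adjusted p of 0.0396, 0.041 and 0.0443. Dcn measured 183, 185 and 184 FPKM with stk and 197, 197 and 196 with dmso (-0.10, adjusted p = 0.0907), and Mmp14 19.1, 17.7 and 18.9 with stk and 16.6, 16.3 and 16.6 with dmso (0.16, adjusted p = 0.0936). Fn1 averaged 421 ± 14.5 FPKM with stk and 381 ± 19.1 with dmso (0.14, adjusted p = 0.134). In these libraries the fold change also varied with transcript length: over 4 length classes of equal size the median of all genes was -0.08 in the shortest and 0.04 in the longest, and the 2 longest classes hold 6 and 8 of the 19 members. The part of length in the members' values was not tested beyond removing its trend. After that 0 members were called, as before, so the count cannot show this part. The fold change of Thbs1 was then 0.18 (limma adjusted p = 0.0610).

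The response itself differed between the lines for 2 of 30 tested members, Adamts1 and Thbs1, where 0.304% of all 12822 genes tested did, 0.109% with a higher response in CT26 and 0.195% with a lower one. Of the 30, 13 reached 1 FPKM in 1 line only, so a response in the other line could hardly be seen. Adamts1 and Thbs1 are among the 17 that reached it in both lines. For Adamts1 the Hepa1-6 values were 1.47, 1.67 and 1.75 FPKM with stk and 1.44, 1.30 and 1.12 with dmso (0.20, adjusted p = 0.211), and the response in CT26 minus that in Hepa1-6 was -0.81 (SE 0.118, adjusted p = 0.0281). For Thbs1 the difference was -0.54 (SE 0.0676, adjusted p = 0.0200). With stk, Thbs1 was below dmso in CT26 and above it in Hepa1-6. The Adamts1 difference was called in 3 and the Thbs1 difference in 11 of 12 fits with 1 library left out. Without the first CT26 stk library neither passed, with adjusted p of 0.089 for Adamts1 and 0.0544 for Thbs1.

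The scramble hairpin was compared with shLucif in Hepa1-6, where both are controls. Of 27 tested members 5 were higher and 19 lower with scramble, where 68.2% of all 12055 genes tested were called, 31.4% higher and 36.8% lower. The median difference was -0.71 over the members and -0.04 over all genes. Of the 27, 10 reached 1 FPKM only with shLucif and so had to be lower with scramble to be tested: Col1a1, Col1a2, Col5a1, Thbs2, Loxl3, Mmp3, Serpinh1, Plod1, Plod2 and Ogn. Of the other 17, 5 were higher and 9 lower, with a median of -0.30. Serpinh1 measured 0.207, 0.0458 and 0.169 FPKM with scramble and 71.8, 64.9 and 62.8 with shLucif (-5.89). Plod2 measured 0, 0 and 0.00964 with scramble and 12.2, 11.8 and 12.6 with shLucif (-3.72). These are the genes listed at 0 in Hepa1-6 with dmso. Col1a1 measured 0.211, 0.0814 and 0.171 FPKM with scramble and 12.6, 13.7 and 14.7 with shLucif (-3.66), and Col1a2 0.0309, 0.0174 and 0.0574 with scramble and 14.3, 16.0 and 16.0 with shLucif (-3.99). The scramble libraries were far below the shLucif libraries in all 4 genes. Thbs2 measured 0.0220, 0.00796 and 0.0148 FPKM with scramble and 7.22, 6.61 and 7.70 with shLucif (-3.01). Plod1 measured 0.992, 0.853 and 0.868 with scramble and 10.4, 10.1 and 10.2 with shLucif (-2.56), and Loxl3 0.0387, 0.0237 and 0.0225 with scramble and 3.12, 3.52 and 3.81 with shLucif (-2.12). Col5a1 measured 0, 0.0260 and 0.0182 with scramble and 4.10, 3.99 and 4.56 with shLucif (-2.36). No scramble library of these genes reached 1 FPKM. Smaller differences of the same direction were seen in Mmp3, at 0.867, 0.842 and 0.676 FPKM with scramble and 2.93, 3.47 and 3.45 with shLucif (-1.25), and in Ogn, at 0, 0.0434 and 0.00576 with scramble and 1.02, 1.34 and 1.19 with shLucif (-1.10). The laminin genes Lamb1 and Lama5 measured 10.6, 11.4 and 10.7 and 20.4, 20.1 and 22.7 FPKM with scramble, against 24.0, 27.0 and 26.0 and 44.0, 48.4 and 52.5 with shLucif (-1.16 and -1.16). Timp2 measured 59.4, 61.3 and 61.4 FPKM with scramble and 108, 114 and 116 with shLucif (-0.88). No group overlapped the other in these genes. Dcn measured 264, 262 and 245 FPKM with scramble and 15.7, 17.7 and 18.0 with shLucif (log2 fold change 3.83, SE 0.0598, adjusted p = 2.55e-08). Col6a1 measured 8.01, 9.95 and 9.67 FPKM with scramble and 3.17, 3.03 and 3.47 with shLucif (1.27). Col18a1 (0.74), Fn1 (0.52) and Adamts1 (0.42) were also higher with scramble.

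Some members did not follow the difference between the lines. Timp3 averaged 6.42 ± 0.278 FPKM with scramble and 6.73 ± 0.312 with shLucif (-0.06, adjusted p = 0.379). Plod2 with shLucif in Hepa1-6, 12.2 ± 0.403 FPKM, was above CT26 with shLucif, 6.58 ± 0.443 FPKM, and Lama5 averaged 48.3 ± 4.22 FPKM in Hepa1-6 shLucif, against 21.0 ± 1.45 with scramble and 32.2 ± 1.03 in CT26 shLucif. Col3a1 and Tnc, present in CT26 with shLucif, averaged 0.167 ± 0.0336 and 0.0561 ± 0.0391 FPKM in the libraries labelled Hepa1-6 shLucif. The ratio of Col1a1 to Col1a2 mRNA was 0.885 ± 0.0304 in them and 0.205 ± 0.00902 in CT26 shLucif (SD, n = 3). What these libraries hold was not tested. Without any 1 shLucif library, 5 of 17 tested members were higher and 9 lower, since genes present only with shLucif then fall under the filter.

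Further matrix genes, on lists chosen by function, were counted in the same fits, in which 37.8% of all genes were called with sh1, 38.9% with sh2 and 52.5% with sh3. Of 23 tested matrix glycoproteins and proteoglycans outside the 43, 14 rose and 3 fell with sh1, 14 rose and 4 fell with sh2, and 18 rose and 3 fell with sh3, with median log2 fold changes of 0.39, 0.30 and 0.63, against 0.00, -0.01 and 0.04 over all genes. Glypican-1, a cell surface proteoglycan, was at 96.0 ± 7.54 FPKM with sh1, 85.3 ± 3.63 with sh2 and 57.4 ± 0.772 with sh3, against 36.6 ± 0.284 with shLucif (Gpc1 log2 fold changes 1.36 with sh1 and 1.20 with sh2). Fibulin-2 (Fbln2, 1.50) and nidogen-1 (Nid1, 1.25), which bridge basement membrane proteins, the syndecan gene Sdc1 (1.17), Emilin2 (1.16), Ltbp4 (1.12) and Ltbp2 (1.05) rose by more than 1 with sh3. Of 11 tested proteases and inhibitors, 8 rose and 1 fell with sh1 (median 0.41), 8 rose and 1 fell with sh2 (0.48), and 4 rose and 3 fell with sh3 (-0.03). The tissue plasminogen activator gene Plat rose with sh1 (1.21) and sh2 (1.17). Of 12 other collagen-processing genes, 7 rose and 1 fell with sh1 (median 0.23), 5 rose and 1 fell with sh2 (0.18), and 7 rose and 0 fell with sh3 (0.37). Of 4 other collagens, 1 rose and 2 fell with sh1 (median -0.04), 1 rose and 1 fell with sh2 (-0.03), and 3 rose and 1 fell with sh3 (0.43).

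Beside the same shares of all genes (37.8%, 38.9% and 52.5%), of 12 tested matrix receptors 7 rose and 2 fell with sh1 (median 0.20), 5 rose and 2 fell with sh2 (0.15), and 7 rose and 1 fell with sh3 (0.37). The laminin receptor chains Itgb4 (1.59) and Itga3 (1.55) were higher with sh3 than with the mean of sh1 and sh2. Of 16 tested genes of TGF-beta signalling and YAP targets, 1 rose and 6 fell with sh1 (median 0.06), 2 rose and 6 fell with sh2 (-0.01), and 10 rose and 0 fell with sh3 (0.24). Ctgf was at 8.29 ± 0.719 FPKM with sh1, 8.23 ± 0.384 with sh2 and 34.9 ± 1.62 with sh3, against 11.5 ± 0.242 with shLucif, and sh3 exceeded the mean of sh1 and sh2 by 1.96. Cyr61 was at 58.0 ± 2.62 FPKM with sh1, 60.0 ± 3.54 with sh2 and 204 ± 18.4 with sh3, against 55.1 ± 3.70 with shLucif, and sh3 exceeded the mean of sh1 and sh2 by 1.77. Both are matricellular proteins whose genes are known targets of YAP. With stk in CT26, where 0.748% of all genes were called, 0 genes of the 6 lists passed with limma. In each list 0 to 2 genes had an unadjusted p under 0.05, as did 1656 of all 11358 genes tested. With stk in Hepa1-6, where 1.53% of all genes were called, 4 of 18 matrix glycoproteins and proteoglycans rose, the proteoglycan genes Hspg2 (0.34), Agrn (0.25) and Gpc1 (0.28) and Ltbp3 (0.25), named after their values were seen, with adjusted p from 0.0294 to 0.0443. Of 14 matrix receptors, 1 rose, Itga3 (0.23, adjusted p = 0.0462). The medians of these 2 lists were both 0.06, against 0.00 over all genes.

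The same lists were counted between the lines under dmso, where 76.8% of all genes were called, 38.5% higher in CT26 and 38.4% lower. Genes that reached 1 FPKM in 1 line only had to differ to be tested, and they were not separated in these counts and medians. Such genes include Fkbp10 (53.0 FPKM in CT26 and 0.0699 in Hepa1-6) and Fbln2 (35.0 and 0.0110). Of 13 tested collagen-processing genes 7 were higher in CT26 and 3 lower (median 0.11), from Fkbp10 (5.66) and P3h3 (4.65), which modifies collagen prolines, to Pcolce2 (-3.21). Of 5 other collagens 2 were higher and 2 lower (median 0.20). Of 14 proteases and inhibitors 5 were higher and 8 lower (median -1.60), with the collagenase gene Mmp13 (-4.59) lowest. Of 14 receptors 4 were higher and 8 lower (median -0.50), with the collagen-binding integrin chain Itga2 (-4.45) lowest. Of 26 glycoproteins and proteoglycans 15 were higher and 11 lower (median 0.70), from Fbln2 (5.15) to the laminin chain gene Lamb3 (-3.69). Of 17 genes of the TGF-beta and YAP list 3 were higher and 13 lower (median -0.77), against a median of -0.01 over all genes.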

How the data were processed

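RNA was sequenced from cultured CT26 and Hepa1-6 cells. The authors deposited FPKM, 1 table per experiment, normalized separately. The names of the 2 tables are swapped between the experiments, and each was assigned by its column names. Per the labels' protocols RNA was total RNA, reads were paired and trimmed with Skewer, and a SMARTer kit was used for certain samples, which are not named. GRCm38, HISAT2, STAR, DESeq2 and edgeR are named in the submitters' processing notes. For the role of each, and for strand in counting, the sources used here give nothing. There are 45 labelled samples, and 30 columns were matched to them, by name except for sh1. The 3 sh1 columns match by hairpin only, so they carry no replicate number, and whether they are repeat libraries of 1 sample is not known. The other 21 columns match no label and were not used, and the Soat1 hairpins in Hepa1-6 are not analysed here. Each line also has labelled stk samples, beyond the 3 used, that match no column by name and are not analysed. Nothing says that replicates are separate cultures, so p-values measure the spread between libraries, which may be technical.

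log2(FPKM + 1) was fitted per line by limma (version 3.58.1, R version 4.3.3) with a trend of variance on level. Genes needed 1 FPKM or more in 3 or more libraries. The procedure was tested on simulated data. Comparisons of CT26 with Hepa1-6 used 1 model of the drug table. Tests were two-sided, with a call at adjusted p under 0.05. An exact permutation test of 3 against 3 cannot give a p under 0.1 and was not used. The members and lists were chosen with earlier results of these data known. Values per library are given for members called at an absolute log2 fold change of at least 0.5 (at most 15 per comparison), for the 5 smallest p where fewer than 5 were, for levels of at least 100 FPKM, and for members that differ between lines in the response to stk or between sh3 and the other hairpins. Serpinh1, Ogn and Ntn4 under stk were added after their values were seen, and other members are given by means or ranges. Read totals are unknown, so no counting interval is given, and relative depth is from steps under 0.05 FPKM. Gene positions and exon overlaps are from the GENCODE annotation of GRCm38.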

Additional observations from a re-analysis of the deposited data

Results flagged for a closer look

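The response to stk differed between the lines, by a test of the difference itself, for 2 matrix genes. For Thbs1 the log2 response in CT26 minus that in Hepa1-6 was -0.54 (limma adjusted p = 0.0200), with 30.1 ± 0.746 FPKM with stk and 37.9 ± 2.47 with dmso in CT26, and 101 ± 4.50 with stk and 86.7 ± 1.55 with dmso in Hepa1-6. For Adamts1 it was -0.81 (adjusted p = 0.0281), with 4.44 ± 0.438 FPKM with stk and 7.27 ± 0.661 with dmso in CT26, and 1.63 ± 0.142 with stk and 1.28 ± 0.161 with dmso in Hepa1-6 (SD, n = 3 each). The Thbs1 difference was called in 11 and the Adamts1 difference in 3 of 12 fits with 1 library left out, and with the replicate number as a block the adjusted p was 0.0460 for Thbs1 and 0.0722 for Adamts1.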

How the results depend on the processing

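The alternatives were a pseudocount of 0.1, no filter on low FPKM, a minimum of 5 FPKM, quantile normalization, removal of the trend with transcript length, the replicate number as a block, all libraries of a table in 1 model, and leaving out each library in turn. Of 1731 recomputed fold changes of named members, 1692 kept direction and side of the threshold, 26 lost their call, 13 gained one and 0 reversed. All 39 that changed concern stk. Fits in which a named member fell under the filter are not among the 1731. For scramble against shLucif, the 10 members present only with shLucif were tested in 3 of 6 fits with a library left out. With the hairpins in CT26, Mmp3 and Col6a2 were tested in 9 of 12. The 2 members called with stk in CT26 became 0 without the filter, 0 with the replicate block and 4 in 1 model, and 0 to 1 with a library left out. The 0 in Hepa1-6 became 3 with a minimum of 5 FPKM, 2 with quantile normalization and 3 in 1 model, and was 0 in each of 6 fits with a library left out. The 2 members whose response differed between the lines became 1 with the block, and 0 to 2 with a library left out. The count for scramble against shLucif ran from 14 to 24. The other ranges with a library left out were 28 to 30 (lines), 18 to 21 (sh1), 22 to 25 (sh2), 20 to 25 (sh3), 20 to 25 (mean of hairpins) and 22 to 25 (sh3 against the other hairpins). Beyond fewer libraries or another set of genes tested, the cause of these changes was not tested. The deviations of same-numbered libraries from their group means had correlations from -0.05 to 0.10 across genes. With 3 libraries per group these values cannot decide whether the numbers mark shared cultures or batches. In no comparison did every library correlate best with its own number. The block gave 26 members for sh2 (25 without it), 23 for sh3 (25 without it) and left the counts for the lines, scramble and stk in Hepa1-6 at 30, 24 and 0. For the mean of sh2 and sh3 it gave 25, a contrast with no fit without the block. It could not be fitted for sh1, whose columns carry no number.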

Other observations

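Serpinh1 took values in 2 separate ranges within groups of CT26. It measured 97.9, 85.3 and 88.4 FPKM with stk and 199, 195 and 89.3 with dmso in the drug table, and 99.9, 109 and 109.7 with sh1, 224, 241 and 96.9 with sh2 and 222, 101 and 92.1 with sh3, against 98.2, 92.4 and 195 with shLucif in the knockdown table. No CT26 library lies between 109.7 and 195 FPKM.

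CT26 with shLucif also stood away from CT26 with dmso in several of these genes, with the caution that the tables were normalized separately, so that no test was made. Ogn averaged 32.3 ± 1.33 FPKM with shLucif and 8.59 ± 0.759 in dmso cells. Thbs2 averaged 35.0 ± 0.902 with shLucif and 10.4 ± 0.991 in dmso cells, and Tnc 7.54 ± 0.702 with shLucif and 0.771 ± 0.180 in dmso cells. Col1a1 averaged 18.6 ± 0.877 FPKM with shLucif and 54.7 ± 1.79 in dmso cells, where the sh3 line had 56.0 ± 1.77. Thbs1 averaged 16.9 ± 0.386 with shLucif and 37.9 ± 2.47 in dmso cells. Of the genes that rose with every hairpin, Loxl3 averaged 4.12 FPKM with shLucif and 10.9 in dmso cells. Ntn4 averaged 0.789 with shLucif and 1.59 in dmso cells, and Col4a1 23.2 with shLucif and 31.3 in dmso cells. Other members were closer, such as Col1a2 (90.8 and 84.5) and Col5a1 (25.4 and 23.5). The part of the shared control libraries in the hairpin differences was not tested. The experiments also differ in time and treatment.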
